A study of Bos taurus with 27 samples.

Results

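The genes described here encode 10 S100 calcium-binding proteins of cattle: S100A1, S100A2, S100A4, S100A7, S100A8, S100A9, S100A10, S100A11, S100A12 and S100A14. Each was taken as the non-control probe whose gene name in the scanner files equalled the symbol. All 10 names were found, with 1 probe each, among 14952 gene names on the array.

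RNA of the rumen epithelium (RE) was measured in 9 Japanese Black beef cattle, castrated males fitted with a rumen fistula, each biopsied at 3 fattening stages. Early biopsies were taken at 14 months, Middle ones at 21 and Late ones at 29, with 9 arrays per stage and 27 in all. All cattle ate rice straw and a concentrate diet whose amount was raised gradually. In the study the ratio of forage to concentrate and the protein content of the concentrate also differed between stages. No group stayed on another diet, so age, time on the diet and its make-up cannot be told apart. The concentrate actually eaten did not follow age in the study, and no intake values were used here. Following the study, Middle against Early is called the first period, Late against Middle the second period and Late against Early the total period, each compared within animals.

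S100 proteins are small proteins with EF-hand loops that change shape when calcium binds, and most work as dimers that then dock on a target protein. *S100A8*, *S100A9* and *S100A12* are abundant in neutrophils, are also made by stressed stratified epithelium, and are released as antimicrobial, metal-binding alarm signals. Most S100 genes lie in the epidermal differentiation complex, beside the genes of the cornified envelope, the toughened layer of the outermost epithelial cells.

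The text of the labels on RNA extraction names blood neutrophils and liver, whereas their title, source and tissue name the RE, so marker genes were read first. Of 18 stratified epithelium genes on the array, 17 passed background clearly on each of the 9 arrays in at least 1 stage, with the keratin *KRT6A* probe the brightest, while *KRT4* did so on no array. Of 10 liver genes, *ALB* and *FGA* were well above background on no array, *APOA2* on 9 Early, 9 Middle and 9 Late arrays, *APOA1* on 9, 8 and 9, *TTR* on 9, 5 and 9, and *AHSG* on 9, 0 and 9. On no array well above background were the neutrophil granule and adhesion genes *ELANE*, *CAMP*, *PGLYRP1* and *ITGAM*. Of 22 neutrophil and myeloid genes, *NCF1*, a subunit of the phagocyte oxidase, had the brightest probe.

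The Middle arrays were dimmer than the others. As linear scanner units, the array median of processed signal was 35.2 at the lowest, 39.3 at the median and 48.6 at the highest in the Early stage, 8.22, 16.7 and 28.7 in the Middle stage, and 32.2, 39.6 and 47.0 in the Late stage. No Middle array reached the lowest array of another stage. Levels below are log2 of the processed signal minus the median of the array, so 1 unit is a doubling relative to the median probe of that array. Arrays also sat on 5 slides. Slide 2 held 1 Early array (animal 9) and 7 Middle arrays, and every other slide held a single stage, so slide and stage were largely confounded.

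The probes were 60 bases long. Of the 10, 7 were designed from RefSeq transcripts and 3 (*S100A4*, *S100A9* and *S100A10*) from expressed sequence tags. In the array's build, UMD 3.1, 9 lay on chromosome 3 and the *S100A10* probe was not placed. In the RefSeq gene table of assembly ARS-UCD2.0, which held all 10 genes, *S100A8*, *S100A12* and *S100A9* followed each other directly. *S100A11* and *S100A10* were also neighbours, on the far side of *IVL*, *KPRP*, *CRNN* and other cornified envelope genes. Windows of 30 bases are shown for the 4 genes on whose brightness the results turn and for *S100A9* and *S100A10*. These 2 were at background on nearly all or all arrays. The polyadenylation signal AATAAA is in capitals.
S100A14, bases 31 to 60, chr3:16829333-16829392, plus strand: aggatgatggttgttttgtatcatttgatt
S100A2, bases 31 to 60, chr3:16872546-16872605, plus strand: cttttttagttttactcAATAAActttttt
S100A12, bases 31 to 60, chr3:17165169-17165228, plus strand: ccctgaggctgccttacccgagggaagaga
S100A8, bases 31 to 60, chr3:17147825-17147884, plus strand: cccctggactcgtgcctgcagagtAATAAA
S100A9, bases 31 to 60, chr3:17178689-17178748, plus strand: aagcctttgaggataggagactgcagcaga
S100A10, bases 31 to 60, not placed: ttaactcatctaatcacgcatattagagat
The coordinates are those of the whole probe. The signal AATAAA, read on the given strand, was found in 3 of the 10 whole probes (*S100A2*, *S100A8* and *S100A11*) and in 9.51% of 15008 probes. The *S100A8*, *S100A12* and *S100A9* probes run along the same strand. The strand on which *S100A9* is transcribed was not given in the sources used here, so whether its probe reads the messenger RNA could not be checked. No such check is given for the *S100A4* probe, also from an expressed sequence tag. The unplaced *S100A10* probe had no strand.

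Of the 10 S100 genes, 6 were well above background on all 27 arrays (*S100A1*, *S100A2*, *S100A8*, *S100A11*, *S100A12* and *S100A14*). *S100A4* was so on 9 Early, 6 Middle and 9 Late arrays, *S100A7* on 4, 1 and 5, *S100A9* on 1, 0 and 1, and *S100A10* on none. No S100 value was missing or saturated.

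In the first period 6 of 10 S100 genes passed the test (limma, adjusted *P* below 0.05 over 15008 probes) as higher, beside 45.3% of all probes, and 1 as lower, beside 21.2%. In the second period 6 were lower, beside 44.8% of all probes, and 0 were higher, beside 26.7%. In limma 6 had an unadjusted *P* below 0.05. The methods' t-test also called 6 lower and 0 higher in the second period, beside 41% and 24.3% of all probes. In the total period 2 were lower, beside 9.02%, and 0 were higher, beside 10.9%, with an unadjusted *P* below 0.05 in 4 genes. The methods' t-test with Benjamini-Hochberg adjustment called 2 higher and 2 lower there, beside 18.3% and 11.4%.

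The median log2 fold change over all probes was 0.33, -0.28 and 0.03 in the first, second and total periods, against a median over the 10 members of 0.56, -0.42 and 0.11. For 6797 probes that all 27 arrays measured well above background, called bright here, these medians were 0.08, 0.09 and 0.13. Of bright S100 genes, 4 of 6 were higher and 0 lower in the first period, beside 34.9% and 26.9% of bright probes. In the second period 4 of 6 were lower and 0 higher, beside 30.7% and 37.4%.

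The split moved with the scaling. With quantile normalization 2 S100 genes were higher and 1 lower in the first period, beside 24.5% and 23.3% of all probes. With cyclic loess on bright probes 3 were higher and 3 lower there, beside 15.0% and 56.2%, and in the second period 4 were higher and 3 lower, beside 59.0% and 17.0%. With normexp background correction 3 were higher and 0 lower in the first period, beside 45.4% and 22.2%, and 2 higher and 4 lower in the second, beside 32.5% and 46.7%. Those 3 were *S100A7*, *S100A9* and *S100A10*, near or at background, and no bright S100 gene passed there. They were lower in the second period with *S100A4*, and the 2 higher were *S100A1* and *S100A11*. With the brightness of each array as a covariate 1 was higher in the first period, beside 0.853% of all probes higher and 2.69% lower, and 1 lower in the second, beside 7.88% and 6.64%. In both cases this was *S100A14*.

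**Figure D1:**
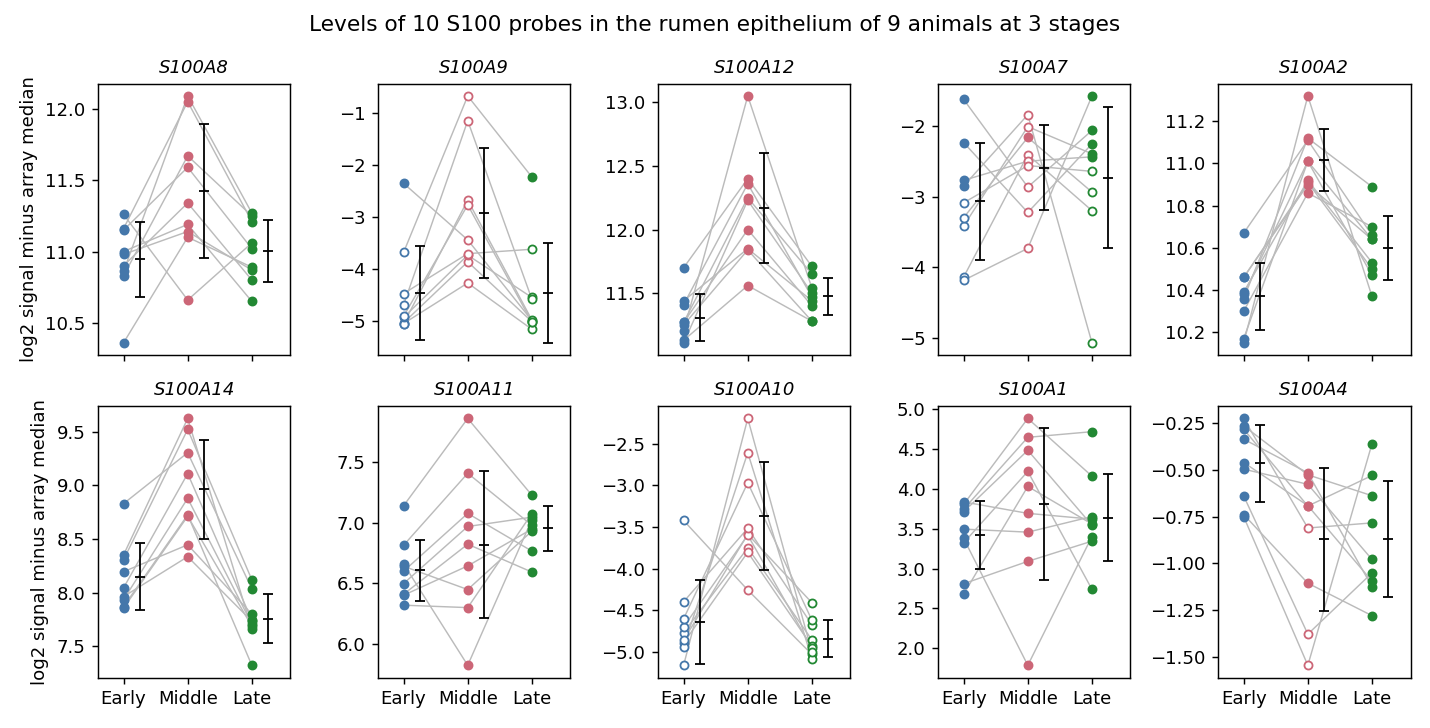
Level of each S100 probe (log2 processed signal minus the array median) in 9 animals at 3 stages, with lines joining the arrays of an animal, filled points for arrays on which the probe was well above background, open points for the others, and bars for mean ± SD. *S100A14* at the Middle stage lay between 8.33 and 9.62, above all Late values, and *S100A9* and *S100A10* are drawn almost wholly in open points.

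*S100A14*, an epithelial member of the family linked to cell junctions and motility, had the largest second-period change among the bright S100 genes. Its level was 7.86 at the lowest, 8.04 at the median and 8.83 at the highest in the Early stage, 8.33, 8.88 and 9.62 in the Middle stage, and 7.32, 7.73 and 8.12 in the Late stage. Middle and Late values did not overlap, whereas Early values overlapped with both. *S100A14* was upregulated in the first period by 0.81 log2 units (SE 0.127, 1.76-fold, adjusted *P* = 2.72e-05), higher in 9 of 9 animals. In the second period it was then downregulated, changing by -1.20 (SE 0.127, 2.30-fold lower, adjusted *P* = 1.73e-07), lower in 9 of 9 animals.

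Over the total period *S100A14* was lower in 9 of 9 animals by a log2 fold change of -0.39 (SE 0.127, adjusted *P* = 0.0343). Relative to the median bright probe the 3 changes were 0.73, -1.30 and -0.52. *S100A14* kept its direction in both periods under each of the 16 other settings of the first and 13 of the second, scalings included. It could not turn under settings that change only the filter or the test, which left its values at 0.81 and -1.20. Its first-period change was 0.73 with slide as a random block (adjusted *P* = 0.00352), 0.93 with slide as a fixed block (adjusted *P* = 0.178) and 0.93 within slide 2 (adjusted *P* = 0.257), where 1 Early array stood against 7. It was 0.36 after normexp (adjusted *P* = 0.237), and adjusted *P* over all settings ran from 1.03e-05 to 0.257. In the second period the change was -1.08 with slide as a random block (adjusted *P* = 0.000508) and -0.49 after normexp (adjusted *P* = 0.102), in a range of 3.75e-08 to 0.102.

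The smaller total-period difference of *S100A14* lost its call with slide as a random block (-0.35, adjusted *P* = 0.537), after normexp (-0.13, adjusted *P* = 0.812) and without pairing (adjusted *P* = 0.101), in a range of 0.0071 to 0.812. It was called in 3 of 9 fits that each left out 1 animal.

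*S100A2*, a nuclear S100 protein typical of the basal layer of stratified epithelium, had a narrow spread. Its level was 10.15, 10.38 and 10.67 (lowest, median, highest) in the Early stage, 10.86, 11.01 and 11.32 in the Middle stage, and 10.37, 10.64 and 10.89 in the Late stage. All Middle values exceeded all Early values, and Late values overlapped with both. In the first period *S100A2* rose by 0.65 (SE 0.0965, 1.57-fold, adjusted *P* = 1.78e-05), higher in 9 of 9 animals, and then changed by -0.42 in the second (SE 0.0965, adjusted *P* = 0.000743), lower in 9 of 9. In the total period it was 0.23 (SE 0.0965, adjusted *P* = 0.103), higher in 8 of 9 animals and below the call threshold.

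The first-period rise of *S100A2* had the same direction under each of 16 settings, of which those changing only the filter or the test left it at 0.65 by construction. It was 0.73 with slide as a random block (adjusted *P* = 0.000617), 1.19 with slide as a fixed block (adjusted *P* = 0.0379) and 0.84 within slide 2 (adjusted *P* = 0.195). It was 0.31 with quantile normalization (adjusted *P* = 0.00329), 0.19 after normexp (adjusted *P* = 0.549) and 0.22 with array brightness as a covariate (adjusted *P* = 0.616), and adjusted *P* ran from 1.65e-06 to 0.616. The second-period fall became -0.13 with quantile normalization (adjusted *P* = 0.158) and -0.02 with array brightness as a covariate (adjusted *P* = 0.957), and it turned to 0.28 after normexp (adjusted *P* = 0.365), in a range of 1.57e-05 to 0.957. Relative to the median bright probe the normexp value was -0.27.

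*S100A12*, also called calgranulin C, binds zinc and copper and the receptor for advanced glycation end products. Its level was 11.11, 11.27 and 11.70 (lowest, median, highest) in the Early stage, 11.56, 12.23 and 13.05 in the Middle stage, and 11.28, 11.47 and 11.71 in the Late stage. Animal 4 held the highest Middle value. Middle values met those of the other stages only at the edge, and Early and Late values overlapped almost wholly. The unscaled processed signal of *S100A12* was lowest in the Middle stage, at a median of 103000 units in the Early, 86600 in the Middle and 107000 in the Late stage. It was so too for *S100A2* (52600, 36400 and 58500), *S100A8* (80700, 62100 and 84000) and *S100A14* (10300, 7860 and 8220).

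Relative to the array median, *S100A12* was upregulated by 0.86 log2 units in the first period (SE 0.125, 1.82-fold, adjusted *P* = 1.36e-05), higher in 9 of 9 animals, but this was -0.03 with array brightness as a covariate (adjusted *P* = 0.958). It was downregulated in the second period by -0.69 (SE 0.125, adjusted *P* = 6.91e-05), lower in 9 of 9 animals, but the value was 0.003 with quantile normalization (adjusted *P* = 0.976), 0.06 after normexp (adjusted *P* = 0.834) and 0.14 with the brightness covariate (adjusted *P* = 0.645). Quantile normalization left 0.05 in the first period (adjusted *P* = 0.645), and normexp left 0.38 (adjusted *P* = 0.216). Relative to the median bright probe the normexp values of *S100A12* were 0.67 and, in the second period, -0.49. Adjusted *P* over all settings ran from 4.45e-06 to 0.958 in the first period and from 1.61e-05 to 0.976 in the second. With slide as a random block the changes were 0.92 (adjusted *P* = 0.00121) and -0.71 (adjusted *P* = 0.0122), with slide as a fixed block the first was 1.22 (adjusted *P* = 0.153), and within slide 2 it was 1.07 (adjusted *P* = 0.261).

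The level of *S100A12* moved with array brightness. Over 27 arrays its correlation with log2 of the array median was -0.97, and among the 9 Middle arrays alone it was -0.96. For *S100A2* these were -0.84 and -0.53, for *S100A8* -0.44 and 0.22, and for *S100A14* -0.51 and 0.66. The array median is itself subtracted in every level, so these values share a term. The cause was not tested.

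**Figure D2:**
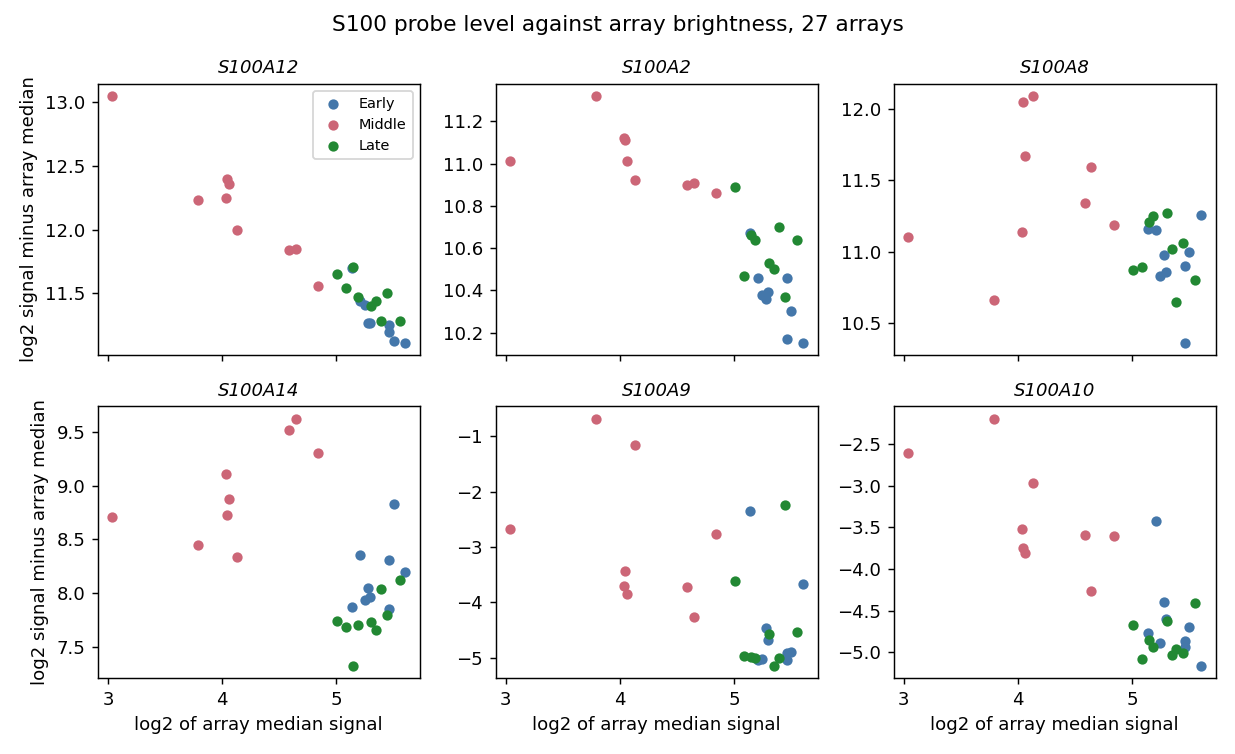
Level of 6 S100 probes (log2 processed signal minus the array median) against log2 of the median processed signal of the array, 27 arrays colored by stage. *S100A12* falls along a line with a correlation of -0.97, while among Middle arrays *S100A14* has one of 0.66.

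*S100A8* is the partner of *S100A9* in calprotectin, a zinc- and manganese-binding antimicrobial complex. Its level was 10.36, 10.98 and 11.26 (lowest, median, highest) in the Early stage, 10.66, 11.34 and 12.09 in the Middle stage, and 10.65, 11.02 and 11.27 in the Late stage. All 3 stages overlapped, with animal 8 highest and animal 9 lowest in the Middle stage, both on slide 3. Relative to the array median *S100A8* changed by 0.48 in the first period (SE 0.145, adjusted *P* = 0.00691), higher in 8 of 9 animals, and -0.42 in the second (SE 0.145, adjusted *P* = 0.0137), lower in 8 of 9. In the total period it was 0.06 (SE 0.145, adjusted *P* = 0.839), with 4 animals higher and 5 lower.

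The direction of *S100A8* depended on the processing. In the first period it turned to -0.05 with quantile normalization (adjusted *P* = 0.814), -0.12 after normexp (adjusted *P* = 0.677) and -1.12 with slide as a fixed block (adjusted *P* = 0.122). It was 0.29 with slide as a random block (adjusted *P* = 0.292) and 0.18 within slide 2 (adjusted *P* = 0.845), and adjusted *P* ran from 0.000452 to 0.845. In the second period the value was -0.05 with quantile normalization (adjusted *P* = 0.831), -0.27 with slide as a random block (adjusted *P* = 0.365) and 0.46 after normexp (adjusted *P* = 0.105), in a range of 0.000763 to 0.831. Relative to the median bright probe the normexp values were 0.17 and -0.09. With slide as a fixed block, slide and stage are separated only through animals 8 and 9, whose first-period differences were 1.23 and -0.599.

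*S100A9*, the other calprotectin subunit, had a processed signal of 1.12 at the lowest, 1.52 at the median and 6.89 at the highest in the Early stage, 1.15, 1.52 and 8.61 in the Middle stage, and 1.08, 1.30 and 9.27 in the Late stage. These linear values overlapped throughout, and only 1 Early array (animal 1) and 1 Late array (animal 9) were well above background. After the array median was subtracted, *S100A9* passed the test as higher in the first period (adjusted *P* = 0.00122) and lower in the second (adjusted *P* = 0.000983), both in 8 of 9 animals. Both directions reversed with cyclic loess on bright probes. No fold is given, because no stage measured the gene.

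*S100A10*, which forms a tetramer with annexin A2, stood likewise at a median signal of 1.52 in the Early, 1.43 in the Middle and 1.26 in the Late stage, well above background on no array. It also passed as higher in the first period (adjusted *P* = 0.000266) and lower in the second (adjusted *P* = 4.46e-05), with the opposite sign under cyclic loess. These 2 genes thus entered 2 of the 6 counts of higher genes in the first period, and of lower genes in the second, with a signal that was flat on the linear scale. With the test limited to 10165 probes that every array of some stage measured well above background, 4 S100 genes were higher and 1 lower in the first period, beside 31.4% and 31.2% of those probes, and 0 higher and 4 lower in the second, beside 39.1% and 28.6%.

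*S100A7*, known as psoriasin in human skin, was near background as well, with levels of -4.18, -3.09 and -1.62 (lowest, median, highest) in the Early stage, -3.73, -2.50 and -1.84 in the Middle stage, and -5.07, -2.43 and -1.57 in the Late stage. The stages overlapped, and no comparison passed the test (adjusted *P* = 0.29, 0.756 and 0.617 in the first, second and total periods). *S100A7* was called in 2 of 15 other settings of the first period (-1.14 with cyclic loess, 0.23 after normexp) and 2 of 12 of the second (1.72 and -0.24).

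*S100A11*, which binds annexin A1, had levels of 6.32, 6.60 and 7.14 (lowest, median, highest) in the Early stage, 5.83, 6.82 and 7.86 in the Middle stage, and 6.59, 6.98 and 7.23 in the Late stage. The Middle range enclosed both others. Its log2 fold change was 0.21 (adjusted *P* = 0.252), 0.14 (adjusted *P* = 0.443) and 0.35 (SE 0.158, adjusted *P* = 0.135) in the first, second and total periods, below the call threshold in each. In the total period the value was nevertheless above 0 in 9 of 9 animals, and it passed with only the Early and Late stages in the fit (adjusted *P* = 0.0126, range over settings 0.0112 to 0.655).

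*S100A1*, best known from heart and skeletal muscle, varied most between animals among the bright S100 genes of the Middle stage (SD 0.955, n = 9). Its level was 2.68, 3.50 and 3.84 (lowest, median, highest) in the Early stage, 1.78, 4.03 and 4.89 in the Middle stage, and 2.74, 3.56 and 4.72 in the Late stage. The lowest Middle value was that of animal 5, and the stages overlapped. Log2 fold changes of 0.39 (SE 0.249, adjusted *P* = 0.172), -0.17 (adjusted *P* = 0.542) and 0.22 (adjusted *P* = 0.607) did not pass the test, and without animal 5 the first was 0.64 (adjusted *P* = 0.00981). This was the 1 call among 9 fits that each left out 1 animal. The first-period value was -0.15 after normexp and -0.45 with array brightness as a covariate, and it was called in 0 of 16 other settings.

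*S100A4*, a protein of motile fibroblasts and leukocytes, was the S100 gene lower in the first period. Its level was -0.75, -0.46 and -0.22 (lowest, median, highest) in the Early stage, -1.55, -0.69 and -0.52 in the Middle stage, and -1.28, -0.98 and -0.36 in the Late stage. The stages overlapped, and 3 of 9 Middle arrays did not measure it well above background. *S100A4* changed by -0.41 (SE 0.138, adjusted *P* = 0.0145) in the first period, lower in 9 of 9 animals, and -0.41 (SE 0.138, adjusted *P* = 0.044) in the total period, lower in 8 of 9. With slide as a random block these were -0.39 (adjusted *P* = 0.0972) and -0.21 (adjusted *P* = 0.783), without pairing the latter had an adjusted *P* of 0.0581, with slide as a fixed block the first was -0.31 (adjusted *P* = 0.64), and within slide 2 it was 0.05 (adjusted *P* = 0.956). Over all settings adjusted *P* ran from 7.94e-06 to 0.956 and from 0.0122 to 0.783. The first-period value of *S100A4* was -0.08 with array brightness as a covariate (adjusted *P* = 0.934), -0.05 after normexp (adjusted *P* = 0.195) and -1.23 with cyclic loess, and it was called in 9 of 16 settings. The total-period call was made in 1 of 9 fits that each left out 1 animal, and was lost with quantile normalization (adjusted *P* = 0.0869) and cyclic loess (adjusted *P* = 0.211).

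**Figure D3:**
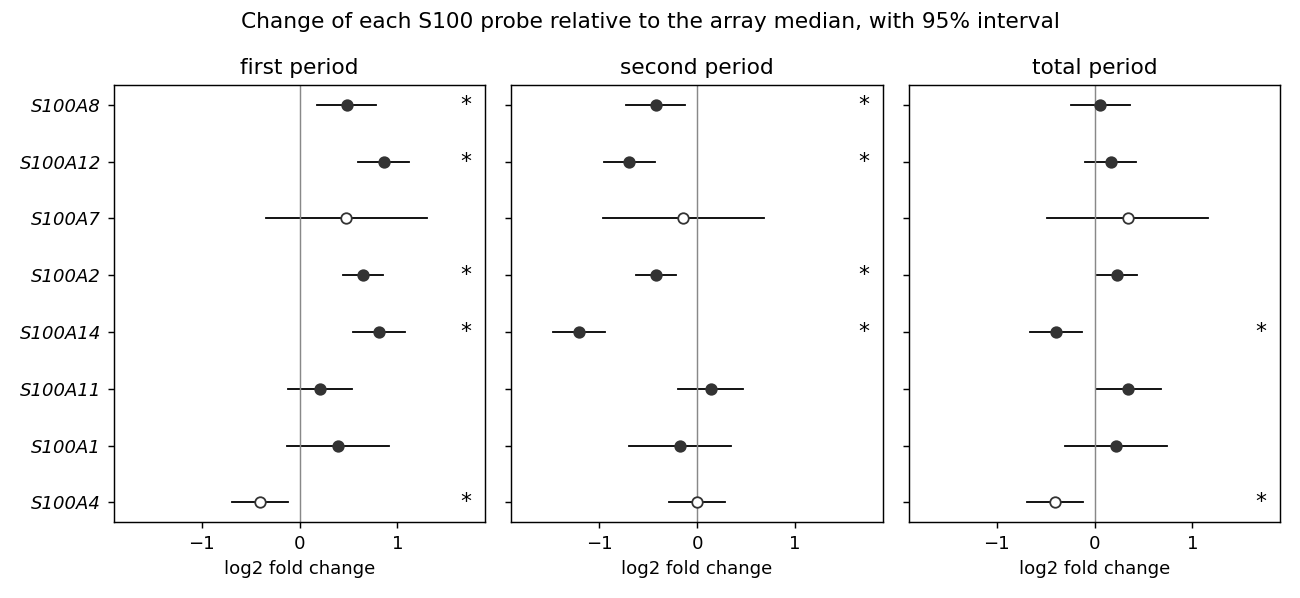
Log2 fold change relative to the array median of 8 S100 probes in each comparison, with 95% interval, open points where at least 1 array did not measure the probe well above background, and an asterisk at an adjusted *P* below 0.05. *S100A9* and *S100A10*, at background, are left out. *S100A8* turns its sign in the first period with quantile normalization and slide as a fixed block, and after normexp in the first and second. *S100A12* turns in the second period with quantile normalization or normexp, and in both with array brightness as a covariate. *S100A2* turns in the second after normexp. *S100A8* in the total period and *S100A1*, *S100A4*, *S100A7* and *S100A11* also turn under some settings.

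The settings plot sets the 4 called bright genes side by side. *S100A14* stayed on its side of 0 throughout, and *S100A2* left it once. Leaving out the 2 dimmest Middle arrays (animals 4 and 9), chosen after seeing the data, gave first-period changes of 0.90 for *S100A14*, 0.55 for *S100A2*, 0.71 for *S100A12* and 0.62 for *S100A8*, with 6 S100 genes called higher and 0 lower, beside 40.8% and 21.1% of all probes. Restricted to the first day of scanning, also chosen after seeing the data, 7 were higher and 0 lower, beside 38.4% and 18.9%, and 8 had an unadjusted *P* below 0.05.

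**Figure D4:**
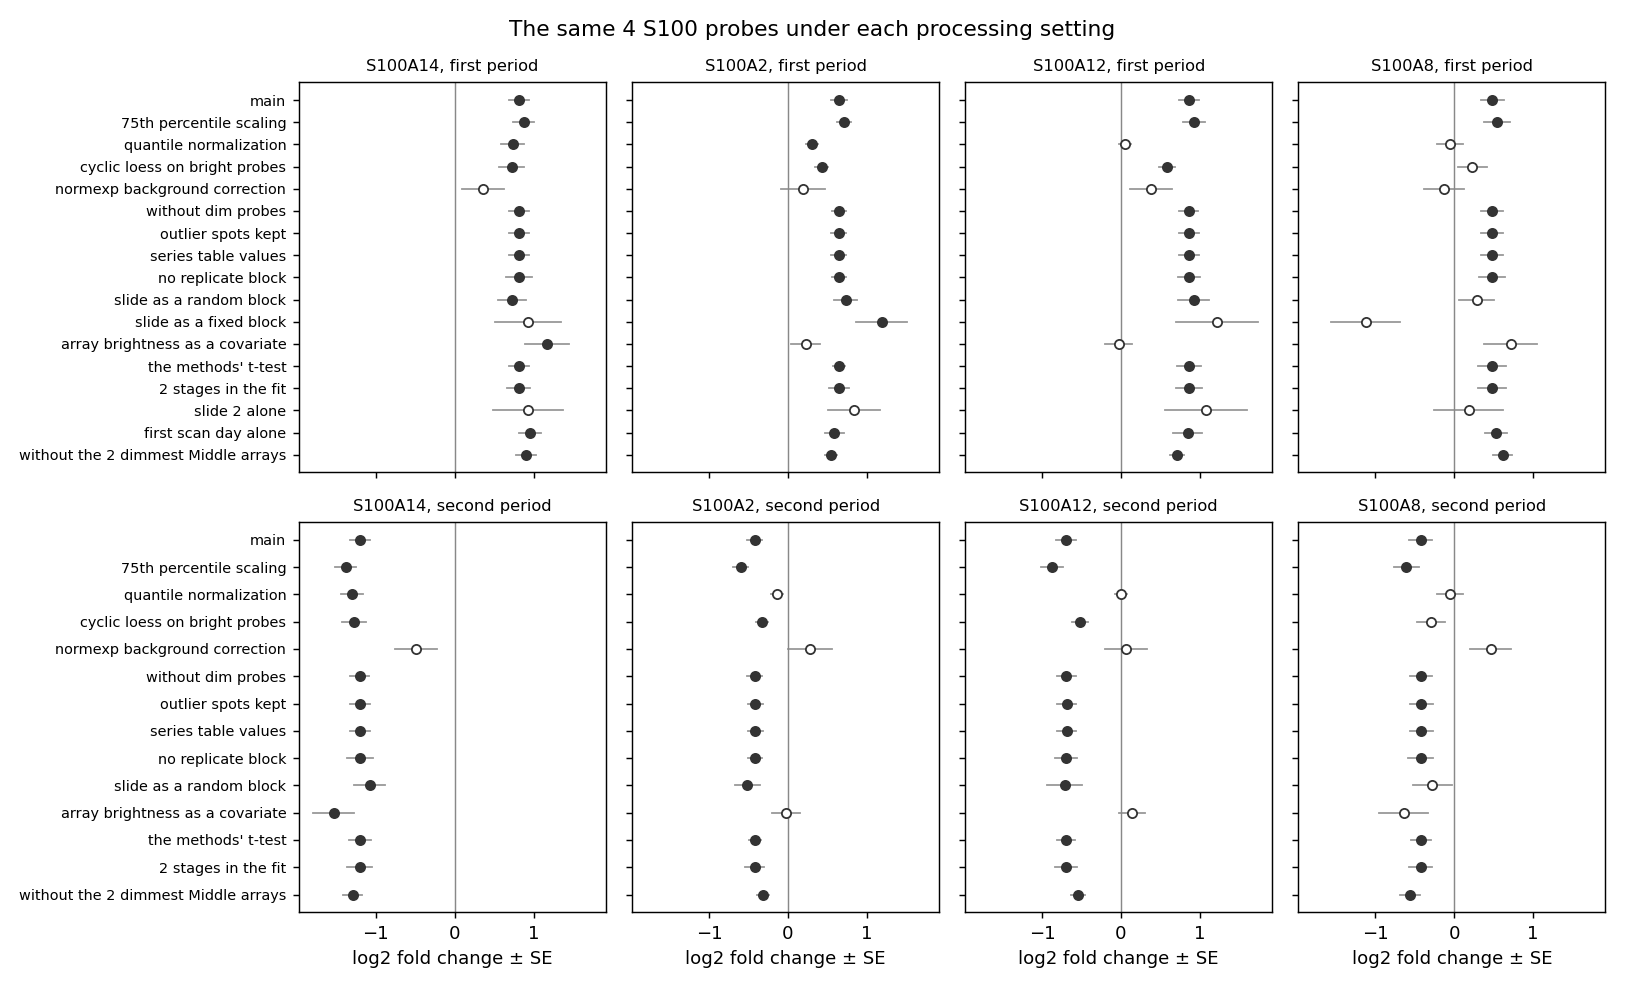
Log2 fold change ± SE of 4 S100 probes in the first and second periods under each processing setting, with filled points at an adjusted *P* below 0.05. *S100A14* lies between 0.36 and 1.17 in the first period and between -1.53 and -0.49 in the second, whereas *S100A8* ranges from -1.12 to 0.72 in the first and from -0.64 to 0.46 in the second, and *S100A12* reaches -0.03 and 0.14.

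Within a stage the bright S100 genes did not move as a block. After the mean of each stage was subtracted, the correlation over 27 arrays was 0.74 between *S100A11* and *S100A14* and 0.43 between *S100A2* and *S100A12*. It was -0.52 between *S100A12* and *S100A14*, and 0.02 between the neighbouring genes *S100A8* and *S100A12*. The arrays share animals and brightness, and these values are a description.

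By the same measure the 3 bright probes most like each S100 gene were named among 6764 without a missing value. For *S100A14* they were *IGFBP6* (0.85), *P4HA2* (0.81) and *YWHAZ* (0.81), and for *S100A2* they were *TIMM50* (0.82), *GSTP1* (0.79) and *PSMC5* (0.76). For *S100A12* they were *RPL36* (0.97), *COX3* (0.97) and *RPLP1* (0.96), a pair of ribosomal proteins and a cytochrome oxidase subunit. With stage means likewise subtracted, the correlation of *S100A12* with array brightness was -0.93. It was -0.47 for *S100A2*, 0.595 for *S100A14* and 0.12 for *S100A8*. *S100A8* was nearest to *TAP*, a bovine epithelial beta-defensin (0.76), the complement factor *CFB* (0.74) and the cadherin *CDH3* (0.72).

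*S100A11* was nearest to *ZCCHC3* (0.86), *ERGIC1* (0.82) and the glycolytic enzyme *ENO1* (0.79). *S100A1* was nearest to *ALDH1A2*, which makes retinoic acid (0.73), to *LOC537848* (0.69) and to *SCARA5* (0.68).

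Of 11 other names with S100 sought, 8 were on the array, 1 of them *S100PBP*, a binding protein outside the family that is among those lower in the second period. In the first period 5 were higher and 0 lower, beside 45.3% and 21.2% of all probes, in the second 0 were higher and 5 lower, beside 26.7% and 44.8%, and in the total period 0 were higher and 2 lower, beside 10.9% and 9.02%, with medians of 0.48, -0.47 and 0.02. *S100A3*, a cysteine-rich member known from hair cuticle, had levels of 0.83, 1.04 and 1.57 (lowest, median, highest) in the Early stage, 1.26, 1.67 and 2.22 in the Middle stage, and 0.19, 0.47 and 0.99 in the Late stage. Middle and Late values did not overlap.

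*S100A3* changed by 0.62 in the first period (SE 0.122, adjusted *P* = 0.000235), by -1.11 in the second (SE 0.122, adjusted *P* = 3.03e-07) and by -0.49 in the total period (SE 0.122, adjusted *P* = 0.00808). These directions held under every setting run, but *S100A3* was called in 12 of 16 settings of the first period (adjusted *P* up to 0.777), 12 of 13 of the second (up to 0.0568) and 11 of 13 of the total period (up to 0.365). *S100A16* (well above background on 0, 1 and 0 arrays) and *S100G* (on none) were called in the first and second periods from signals at background, and no fold is given. *S100A16* was also 1 of the 2 called lower in the total period. *S100Z* ranged from -3.20 (animal 5) to 4.26 in the Middle stage, and its first-period value of 0.05 (SE 0.595, adjusted *P* = 0.949) did not pass. The *S100A5* probe had a first-period value of 0.01 (SE 0.0965, adjusted *P* = 0.924). For *S100A5* and *S100A13*, as for *S100A9*, the strand of the transcript was not given. The *S100G* probe was not placed and had no strand. No such check is given for *S100A16*, whose probe also came from an expressed sequence tag.

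The genes that fuse an S100 domain to a structural protein were thinly covered, with 3 of 7 on the array. *TCHH*, trichohyalin, was bright and changed by -0.16 in the first period (SE 0.395, adjusted *P* = 0.73). *CRNN*, cornulin, was well above background on no array and accounted for the 1 gene called higher in the first period and the 1 called lower in the second, beside 45.3% and 44.8% of all probes.

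Annexins and AHNAK are the docking partners of several S100 dimers. Of 12 on the array, 5 were higher and 4 lower in the first period, beside 45.3% and 21.2% of all probes, 3 higher and 4 lower in the second, beside 26.7% and 44.8%, and 1 higher and 2 lower in the total period, beside 10.9% and 9.02%, with medians of 0.33, -0.17 and -0.13. *ANXA2*, partner of *S100A10*, fell while its own partner was at background. Its level was 4.73, 4.98 and 5.47 (lowest, median, highest) in the Early stage, 3.04, 3.83 and 4.19 in the Middle stage, and 4.44, 4.68 and 4.92 in the Late stage. The Middle values lay below all others.

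*ANXA2* changed by -1.20 in the first period (SE 0.122, adjusted *P* = 3.07e-07), lower in 9 of 9 animals, and 0.88 in the second (SE 0.122, adjusted *P* = 4.57e-06), higher in 9 of 9. *AHNAK*, a giant scaffold bound by the S100A10 and annexin A2 complex, changed by 0.80 in the first period (adjusted *P* = 0.000372) and by -1.54 in the second (SE 0.166, adjusted *P* = 2.38e-07), lower in 9 of 9 animals. *ANXA13*, an epithelial annexin, rose by 0.92 (SE 0.108, adjusted *P* = 1.45e-06) and then changed by -1.07 (adjusted *P* = 1.06e-07). *ANXA7* rose by 0.92 in the second period (SE 0.182, adjusted *P* = 0.000189), or -0.10 with array brightness as a covariate, and *ANXA11* rose by 0.79 over the total period (SE 0.174, adjusted *P* = 0.00325). *ANXA2* and *ANXA13* were called in 14 and 13 of 16 other settings of the first period (adjusted *P* up to 0.253 and 0.459), with *ANXA13* at 0.26 at the lowest, *AHNAK* in 11 of 13 of the second and *ANXA11* in 12 of 13 of the total period. *ANXA1*, partner of *S100A11*, changed by -0.36 in the first period (SE 0.154, adjusted *P* = 0.045).

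Receptors that bind released S100 proteins went several ways. Of 8 on the array, 2 were higher and 1 lower in the first period, beside 45.3% and 21.2% of all probes, 1 higher and 4 lower in the second, beside 26.7% and 44.8%, and 0 higher and 2 lower in the total period, beside 10.9% and 9.02%, with medians of -0.17, -0.60 and -0.11. *AGER*, the receptor for advanced glycation end products, was well above background on 7 Early, 1 Middle and 5 Late arrays. It passed in no comparison (first period adjusted *P* = 0.729). *CD36*, on no array well above background, was 1 of those higher in the first and lower in the second period. *TLR4*, a receptor of calprotectin, differed by 0.15 in the first period (SE 0.188, adjusted *P* = 0.489).

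*BSG*, basigin, which binds S100A9, had levels of 7.81, 8.53 and 9.17 (lowest, median, highest) in the Early stage, 6.54, 7.31 and 8.17 in the Middle stage, and 8.20, 8.64 and 8.93 in the Late stage. Early and Middle values overlapped, and Late values lay above all Middle values. *BSG* changed by -1.17 in the first period (SE 0.183, adjusted *P* = 2.89e-05), lower in 8 of 9 animals, and 1.26 in the second (SE 0.183, adjusted *P* = 7.8e-06), higher in 9 of 9. *ALCAM*, an adhesion molecule, rose by 1.17 in the first period (SE 0.132, adjusted *P* = 9.74e-07) and changed by -1.29 in the second (adjusted *P* = 1.24e-07). In the first period *BSG* was called in 13 and *ALCAM* in 14 of 16 other settings (adjusted *P* up to 0.299 and 0.22).

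*MCAM*, which binds S100A8 and S100A9 on melanoma cells, had levels of 5.57, 5.88 and 6.47 (lowest, median, highest) in the Early stage, 5.34, 5.58 and 6.53 in the Middle stage, and 3.43, 3.58 and 3.79 in the Late stage. Every Late value lay below every other. Its log2 fold change was -2.18 in the second period (SE 0.136, 4.53-fold lower, adjusted *P* = 3.01e-10) and -2.35 in the total period (SE 0.136, 5.11-fold lower, adjusted *P* = 4.62e-10), lower in 9 of 9 animals in each and called under every setting run. With slide as a random block these were -2.19 and -2.46, and Late arrays shared no slide with another stage. Over 13 other settings the second-period value of *MCAM* ran from -2.496 to -1.285 and the total-period value from -2.531 to -2.028.

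Cytokines of the interleukin 17, 22, 1 and 6 families and tumor necrosis factor induce S100 genes in keratinocytes. Of 11 receptor subunits, 2 were higher and 4 lower in the first period, beside 45.3% and 21.2% of all probes, 4 higher and 2 lower in the second, beside 26.7% and 44.8%, and 1 higher and 1 lower in the total period, beside 10.9% and 9.02%, with medians of -0.16, 0.14 and 0.13. *IL10RB*, a subunit of the interleukin 22 receptor, changed by -2.06 in the first period (SE 0.246, adjusted *P* = 1.82e-06) and rose by 2.32 in the second (SE 0.246, adjusted *P* = 1.95e-07), in 9 of 9 animals each, with 8 of 9 Middle arrays well above background. Its first-period call was made in 13 of 16 other settings (-2.33 to -0.54, adjusted *P* up to 0.589). *IL22RA1* changed by -1.09 (SE 0.252, adjusted *P* = 0.000969) and 1.23 (adjusted *P* = 0.000261).

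*IL17RA* was well above background on 8 Early, 0 Middle and 9 Late arrays, and in the second period it passed as higher (limma, adjusted *P* = 2.7e-08). With each Middle reading raised to at least the lowest signal well above background on its array, the Late mean was 2.52-fold higher. This is relative to the array median and no strict lower bound, because spots can miss the mark at higher levels. *S100A16* did so at -0.03 in Middle animal 8, against a Late mean of -0.32 for *IL17RA*. Over 13 other settings the difference from these dim Middle readings ran from 0.215 to 3.825 log2 units, called in each. Over the total period *IL17RA* rose by 1.46 (SE 0.228, adjusted *P* = 0.000167). *IL17RE* rose by 0.87 in the first period (SE 0.175, adjusted *P* = 3e-04, called in 13 of 16 other settings) and changed by -2.16 in the second (adjusted *P* = 6.68e-09) and -1.30 in the total period (adjusted *P* = 3.37e-05). With slide as a random block the total-period values were 1.32 for *IL17RA* (adjusted *P* = 0.14, range over settings 4.8e-05 to 0.14) and -1.07 for *IL17RE* (adjusted *P* = 0.0788, range 9.36e-06 to 0.0788), neither called.

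Calmodulin-like EF-hand proteins bind calcium in the same kind of loop. Of 8 read here, 6 were higher and 1 lower in the first period, beside 45.3% and 21.2% of all probes, and 1 higher and 5 lower in the second, beside 26.7% and 44.8%, with medians of 1.05, -0.93 and, in the total period, 0.19. Only 1 of the 8 was bright, and *CALB2* and *CALN1*, on no array well above background, were among those higher and then lower. *CALML5*, a calmodulin-like skin protein of differentiating keratinocytes, changed by -1.80 in the first period (SE 0.248, adjusted *P* = 8.09e-06), lower in 9 of 9 animals, and rose by 2.03 in the second (SE 0.248, adjusted *P* = 1.07e-06), with 7 of 9 Middle arrays well above background. *CALM3* rose by 0.80 in the first period (SE 0.222, adjusted *P* = 0.00382), or -0.56 with array brightness as a covariate, and *CALML4* changed by -0.49 in the second (SE 0.206, adjusted *P* = 0.0391). The *CALML4* call was made in 7 of 13 other settings (-1.28 to -0.14, adjusted *P* up to 0.319) and in 5 of 9 fits that each left out 1 animal, and that of *CALM3* in 12 of 16 settings. In the first period *CALML5* was called in 13 of 16 (-3.19 to -0.61, adjusted *P* up to 0.805) and in the second in 12 of 13.

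Metallothioneins bind zinc, as several S100 dimers do. Of 5 metallothioneins and their zinc sensor *MTF1*, counted as 6 genes, 4 were higher and 0 lower in the first period, beside 45.3% and 21.2% of all probes, 1 higher and 3 lower in the second, beside 26.7% and 44.8%, and 2 higher and 0 lower in the total period, beside 10.9% and 9.02%, with medians of 0.64, -0.45 and 0.00. *MT1E*, on no array well above background, and *MT4*, on 1, were among those higher and then lower. *MT1A* rose by 0.81 in the first period (SE 0.145, adjusted *P* = 9.67e-05) and changed by -0.76 in the second (adjusted *P* = 0.000134), and *MT2A* rose by 0.67 over the total period (SE 0.136, adjusted *P* = 0.00184). *MT1A* was called in 12 of 16 other settings of the first period (0.17 to 1.00, adjusted *P* up to 0.884) and 11 of 13 of the second (-0.93 to -0.05, adjusted *P* up to 0.898), and *MT2A* in 12 of 13. *MTF1* was the gene higher in the second period and 1 of the 2 higher in the total period. It rose by 0.30 in the second period (SE 0.0982, adjusted *P* = 0.00974) and was called in 7 of 13 other settings (0.11 to 0.90, adjusted *P* up to 0.346).

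**Figure D5:**
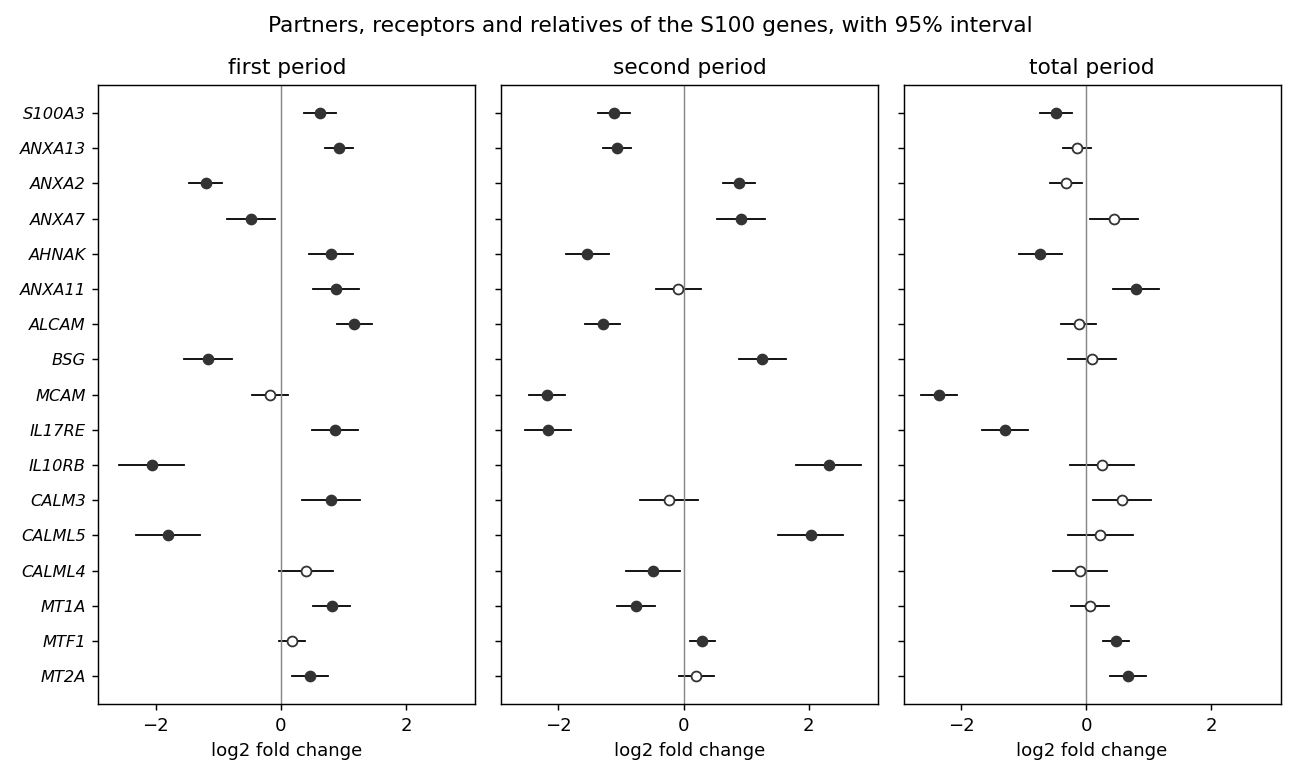
Log2 fold change relative to the array median, with 95% interval, of the genes named from the lists of S100 relatives, partners and receptors, with filled points at an adjusted *P* below 0.05. *MCAM* lies at -2.18 and -2.35 in the second and total periods. The second-period rise of *ANXA7* and the first-period rise of *CALM3* turn sign with array brightness as a covariate, and *IL17RA*, with no Middle array well above background, is left out.

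Cell markers moved as follows. The log2 of the summed level of 22 neutrophil and myeloid genes averaged 7.50, 7.44 and 7.74 at the 3 stages in order. In the first period 5 were higher and 2 lower, beside 45.3% and 21.2% of all probes. Of 9 bright ones 0 were called, beside 34.9% of bright probes higher and 26.9% lower. In the second period 4 were higher and 6 lower, beside 26.7% and 44.8% of all probes. Of bright ones 3 were higher and 1 lower, beside 37.4% and 30.7% of bright probes. The log2 of the summed level of 8 leukocyte genes was 5.20, 5.41 and 4.65, with *LAPTM5* the brightest probe. Of these genes 2 were higher and 3 lower in the first period, beside 45.3% and 21.2% of all probes. In the second 1 was higher and 4 were lower, beside 26.7% and 44.8%. The log2 of the summed level of 18 stratified epithelium genes was 12.1, 11.3 and 12.3. Of them 4 were higher and 8 lower in the first period, beside 45.3% and 21.2% of all probes. In the second 6 were higher and 4 lower, beside 26.7% and 44.8%. *IVL*, involucrin, which lies between S100 genes in the complex, changed by -1.99 in the first period (SE 0.191, adjusted *P* = 1.62e-07) and rose by 2.57 in the second (SE 0.191, adjusted *P* = 2.55e-09), against the direction of *S100A14*.

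That of 7 fibroblast genes was 8.04, 8.55 and 7.89, with *COL1A2* the brightest probe, that of 6 smooth muscle genes 6.65, 7.35 and 6.38, with *ACTA2* the brightest probe, and that of 6 endothelial genes 4.81, 4.79 and 4.75, with *VWF* the brightest probe, with *CDH5* well above background on no array. For 4 red blood cell genes it was 5.85, 7.07 and 5.93, nearly that of *HBA* alone (5.84, 7.06 and 5.93). *HBB* was well above background on 1 Early, 0 Middle and 1 Late array. For 10 liver genes it was 5.68, 5.82 and 5.70, with *APOA2* the brightest probe. First-period calls, higher and lower, were 1 and 1 (fibroblast), 3 and 0 (smooth muscle), 1 and 1 (endothelial), 2 and 0 (red cell), and 6 and 1 (liver). All probes had 45.3% and 21.2%. In the second period, in the same order, they were 1 and 4, 0 and 5, 0 and 1, 0 and 2, and 1 and 7. All probes had 26.7% and 44.8%. The part of these cell types in the S100 changes was not tested, and in bulk biopsies fewer cells of a type and less RNA per cell cannot be told apart. In the main fit *P* values rest on how the stage changes varied from animal to animal among these 9, and they do not cover slide.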

How the data were processed

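RNA of 27 RE biopsies was measured on 1-color Agilent arrays. The deposited intensity files come from Agilent Feature Extraction as run by the authors (9.5 per the labels, 11.0.1.1 per the file headers), which subtracts the local background, and the same deposited output marks spots well above background, saturated or outlying. A log2 table of the authors was deposited too, with column medians of -3.07 to -2.60, which follow log2 of the signal minus about the 75th percentile of each array. Its centering on genes was not stated, and it was used as an alternative. As used it gave nearly the values of the setting with outlying spots kept (first period, *S100A2* 0.65 in both), not those of 75th percentile scaling (0.71). It is thus hardly a separate alternative.

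There were 15646 spots per array, of which 15110 non-control spots carried 15008 probes. Outlying spots were left missing, spots of a probe were averaged, and the median log2 signal of each array was subtracted. The fit (limma 3.58.1, statmod 1.5.0, R 4.3.3) held stage and animal, with Benjamini-Hochberg adjustment over 15008 probes. It was tested on simulated data, and the outcome is not given here. The pairing comes from the design, with the same 9 cattle sampled 3 times. After stage means were removed, correlation averaged 0.158 for arrays of one animal (24 of 27 pairs above 0) and -0.0197 for those of different animals. The RefSeq gene table (ARS-UCD2.0) held 7 members by accession and 3 by symbol, and only its gene names and gene order were used.

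The S100 members and gene lists were chosen with earlier results of these data known, and 1 gene of the planned lists was not used here. Named genes were the members, from each list the largest rise and fall per comparison among those with an adjusted *P* below 0.05 and clearly above background on every array of some stage, receptors and partners explained, and the 3 most correlated bright probes. Other genes named were chosen after their values were seen. Where a gene had several probes, the brightest stood for it. Alternatives were the 75th percentile, quantile and cyclic loess scalings, normexp with an offset of 50, a filter on dim probes, outlying spots kept, the authors' table, no animal block, slide as a random or fixed block, array brightness as a covariate, a fit of only 2 stages, the methods' t-test, slide 2 alone and each animal left out. The number of arrays limits the precision.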

Additional observations from a re-analysis of the deposited data

Results flagged for a closer look

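In 30 groups of 9 arrays (10 S100 probes at 3 stages) 3 held a value far from the others, where chance marks about 1 in 20 groups. *S100A8* in the Early stage was 10.36 in animal 4, below the next value of 10.83, on an array where the probe was well above background. *S100A7* in the Late stage was -5.07 in animal 9, with the next at -3.20, and *S100A10* in the Early stage was -3.42 in animal 2, with the next at -4.40, neither well above background on that array. The cause was not tested.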

How the results depend on the processing

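The Middle arrays were dim, with 48.5% to 71.5% of probes well above background. This limits what is read of *S100A4*, well above background on 9 Early, 6 Middle and 9 Late arrays. *S100A7*, *S100A9* and *S100A10* were near or at background in every stage, which limits what is read of them. *S100A14* kept its direction in 16 of 16 other settings of the first period and 13 of 13 of the second, *S100A2* in 16 of 16 and 12 of 13, *S100A12* in 15 of 16 and 10 of 13, and *S100A8* in 13 of 16 and 12 of 13. These and all other tallies of settings include directions that could not turn. The filter on dim probes, no animal block, the t-test and a fit of 2 stages leave the fold change as it was. Outlying spots kept and the authors' table gave nearly the main values. Late arrays shared no slide with other stages, so slide as a fixed block gave no value for the second and total periods, and slide 2 alone only one for the first. The first scan day alone and the fit without the 2 dimmest Middle arrays were chosen after seeing the data. Values of *S100A9* and *S100A10* below are differences between readings at background and give no fold of either gene. The cause of each change below was not tested.

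Of 10 S100 genes, 7 were called in the first period, against 3 with quantile normalization, 3 after normexp, 1 with slide as a fixed block, 1 with array brightness as a covariate and 0 within slide 2 (2 at an unadjusted *P* below 0.05). Of all probes 45.3% were higher and 21.2% lower there, against 24.5% and 23.3%, 45.4% and 22.2%, 6.69% and 1.47%, 0.853% and 2.69%, and 0% and 0.0467% in these settings in order, so calls over all probes fell in most of them too. In the second period 6 were called, against 1 with quantile normalization and 1 with the covariate (all probes 26.7% higher and 44.8% lower, against 27.1% and 25.7%, and 7.88% and 6.64%). In the total period 2 were called, against 1 each with quantile normalization, cyclic loess and normexp, 0 with slide as a random block (0 unadjusted), and 4 with the methods' t-test (5 unadjusted) or with 2 stages in the fit. Of all probes 10.9% were higher and 9.02% lower there, against 7.13% and 7.24% (quantile), 8.84% and 8.30% (loess), 5.34% and 2.61% (normexp), 0.546% and 1.11% (random block), 18.3% and 11.4% (t-test), and 18.8% and 12.9% (2 stages). The t-test called 7 S100 genes (all probes 41.1% higher and 18.2% lower) in the first period and 6 (24.3% and 41%) in the second. The S100 counts were equal unadjusted and after Benjamini-Hochberg adjustment, and the shares are adjusted. Without the pairing by animal (no replicate block) 0 were called in the total period (3 unadjusted, all probes 9.99% and 8.14%), where *S100A4* and *S100A14* lost their calls. It changed no other S100 call, with 7 in the first period (all probes 44.1% and 20.5%) and 6 in the second (26% and 43.8%). Leaving out 1 animal at a time gave 7 to 8 genes (first period), 6 (second) and 0 to 2 (total). Shares over all probes are not given for these fits, so these counts are not set against the array.

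With 75th percentile scaling, signs turned for *S100A4* -0.18, *S100A11* -0.0421 (second period), *S100A8* -0.0584, *S100A9* -0.11 (total period). With quantile normalization, signs turned for *S100A7* -0.0109, *S100A8* -0.0529 (first period), *S100A7* 0.49, *S100A11* -0.000784, *S100A12* 0.00320 (second period), *S100A8* -0.0997 (total period). With cyclic loess on bright probes, signs turned for *S100A7* -1.14, *S100A9* -0.55, *S100A10* -0.95 (first period), *S100A7* 1.72, *S100A9* 0.88, *S100A10* 1.11, *S100A11* -0.0387 (second period), *S100A8* -0.0633, *S100A10* 0.15 (total period). After normexp background correction, signs turned for *S100A1* -0.15, *S100A8* -0.12, *S100A11* -0.37 (first period), *S100A1* 0.50, *S100A2* 0.28, *S100A4* -0.0979, *S100A8* 0.46, *S100A12* 0.0625 (second period), *S100A7* -0.00701, *S100A9* -0.0138, *S100A10* 0.00466 (total period). With slide as a random block, signs turned for *S100A7* -0.15 (total period). With slide as a fixed block, signs turned for *S100A8* -1.12 (first period). With array brightness as a covariate, signs turned for *S100A1* -0.45, *S100A10* -0.35, *S100A12* -0.0295, *CALM3* -0.56 (first period), *S100A1* 0.61, *S100A4* -0.30, *S100A7* 0.27, *S100A10* 0.0416, *S100A11* -0.16, *S100A12* 0.14, *ANXA7* -0.10 (second period), *S100A9* -0.0659 (total period). Within slide 2 alone, signs turned for *S100A4* 0.0473 (first period). Without the 2 dimmest Middle arrays, signs turned for *S100A1* 0.0391, *S100A4* -0.13, *S100A7* 0.0879 (second period). Leaving out 1 animal at a time, *S100A4* ran from -0.15 to 0.0766 (second period), *S100A7* ran from -0.43 to 0.24 (second period), *S100A8* ran from -0.000325 to 0.11 (total period), *S100A9* ran from -0.18 to 0.33 (total period).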
